A study of Mus musculus with 9 samples.

Results

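The capillaries of the brain are lined by endothelial cells whose membranes carry a set of transporters, and 7 of their genes are described here together with Itm2a, a gene that brain endothelial cells express. The 8 genes were chosen by name, with no threshold on a measured value but with earlier results of these data known: Slc2a1, Mfsd2a, Abcb1a, Abcg2, Slco1c1, Slco1a4, Slc16a1 and Itm2a. Each had a single row in every deposited file, among 53924 rows with a gene name, and all 8 had enough counts to test, among 16634 genes tested. The samples were 9 libraries of total RNA from mouse cerebellum, 3 per group. PLX3AP mice received 3-acetylpyridine (3-AP) after PLX3397, 3AP mice received 3-AP, and control mice received saline. 3-AP, an analogue of nicotinamide, kills inferior olive neurons and with them the climbing fibres that reach Purkinje cells. PLX3397 is an inhibitor of CSF1R and is used to deplete microglia. All PLX3AP and 3AP mice received 3-AP, so an effect of PLX3397 without it was not analysed here. The sources used here give no strain, age, sex, dose or time, and do not say whether each library came from its own animal. The p-values therefore measure only how these libraries vary, part of which may be technical.

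Tight junctions close the gaps between brain endothelial cells, so nutrients must be carried across them by solute carriers, while ATP-driven pumps return lipophilic compounds to the blood. In these cells the Wnt/beta-catenin pathway maintains the barrier programme, including the expression of Slc2a1 and Mfsd2a. Inflammation can change both the junctions and the transporters. Slc2a1 encodes GLUT1, which carries glucose. Mfsd2a carries lysophosphatidylcholine with docosahexaenoic acid and restrains transport by vesicles. Abcb1a (P-glycoprotein) and Abcg2 (breast cancer resistance protein) are efflux pumps. Slco1c1 carries thyroxine, and Slco1a4 carries organic anions such as steroid conjugates. Slc16a1 encodes MCT1, which carries lactate and ketone bodies and is also made by glia. Itm2a encodes a membrane protein with a BRICHOS domain and is not a known transporter.

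The start regions of the 3 genes with the most negative fold changes after 3-AP (2 of them called) are shown because promoter motifs are set beside the changes at the end. They come from RefSeq (GRCm38.p6), run 5′ to 3′ on the strand of the gene and end before the first annotated base of the transcript. Capitals mark the hypoxia element core ACGTG on either strand, the only searched motif found in any of these 3 windows. Of the printed stretches that of Mfsd2a alone holds full copies, and the Itm2a window matched no searched motif. The Itm2a sequence lies on the minus strand at chrX:107403377-107403610, that of Slc2a1 on the plus strand at chr4:119108495-119108710 and that of Mfsd2a on the minus strand at chr4:122961189-122961438.
Itm2a: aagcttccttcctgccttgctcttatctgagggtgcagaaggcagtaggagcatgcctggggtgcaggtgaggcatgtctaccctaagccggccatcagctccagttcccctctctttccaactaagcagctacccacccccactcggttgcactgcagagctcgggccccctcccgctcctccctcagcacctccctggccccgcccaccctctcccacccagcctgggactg
Slc2a1: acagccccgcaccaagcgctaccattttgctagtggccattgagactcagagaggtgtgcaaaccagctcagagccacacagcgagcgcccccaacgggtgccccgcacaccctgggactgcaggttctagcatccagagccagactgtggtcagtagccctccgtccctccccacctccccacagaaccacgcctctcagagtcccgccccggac
Mfsd2a: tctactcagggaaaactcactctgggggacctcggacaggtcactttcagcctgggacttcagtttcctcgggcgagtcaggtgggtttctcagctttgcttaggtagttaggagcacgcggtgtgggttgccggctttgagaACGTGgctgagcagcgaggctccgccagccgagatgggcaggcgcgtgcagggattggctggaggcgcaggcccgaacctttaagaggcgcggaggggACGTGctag

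Library totals ran from 18452256 to 22358447 estimated counts. All 18 endothelial identity genes that were checked (among them Pecam1, Cdh5 and Cldn5) had at least 4.37 CPM in every library, where CPM are counts scaled to library size. They summed to 358 to 366 CPM in PLX3AP, 451 to 487 CPM in 3AP and 340 to 354 CPM in control libraries. Ttr, which marks choroid plexus, lay between 11.5 and 3810 CPM and varied within every group. Microglia markers (10 genes) summed to 81.8 to 126 CPM in PLX3AP, 232 to 283 CPM in 3AP and 137 to 147 CPM in control libraries. Markers of blood leukocytes (12 genes) summed to 4.78 to 6.78 CPM in PLX3AP, 16.1 to 31.8 CPM in 3AP and 4.67 to 6.63 CPM in control libraries. The part of these cells in the results below was not tested. In bulk tissue, fewer cells of a type and less RNA per cell cannot be told apart.

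The genes stood at different levels. Per transcript length, in TPM as deposited, Slc2a1 was the highest in control cerebellum at 105 ± 7.84 TPM (mean ± SD, n = 3 here and throughout). Itm2a followed at 80.3 ± 5.10 TPM, with libraries at 74.6 to 84.3 TPM that lay below those of Slc2a1 at 95.8 to 110 TPM. A gap separated these from Slco1c1 (28.9 ± 2.95 TPM), Slco1a4 (25.2 ± 4.58 TPM) and Mfsd2a (22 ± 1.66 TPM). Abcg2 (18.4 ± 2.55 TPM), Abcb1a (17.9 ± 1.91 TPM) and Slc16a1 (16.4 ± 1.31 TPM) were the lowest. From Slco1c1 down, the libraries of each gene overlapped those of its neighbours in this order. In 3AP cerebellum Slc2a1 stood at 81.6 ± 1.55 TPM and Itm2a at 40.7 ± 4.50 TPM, so the distance between the 2 highest genes was wider.

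**Figure D1:**
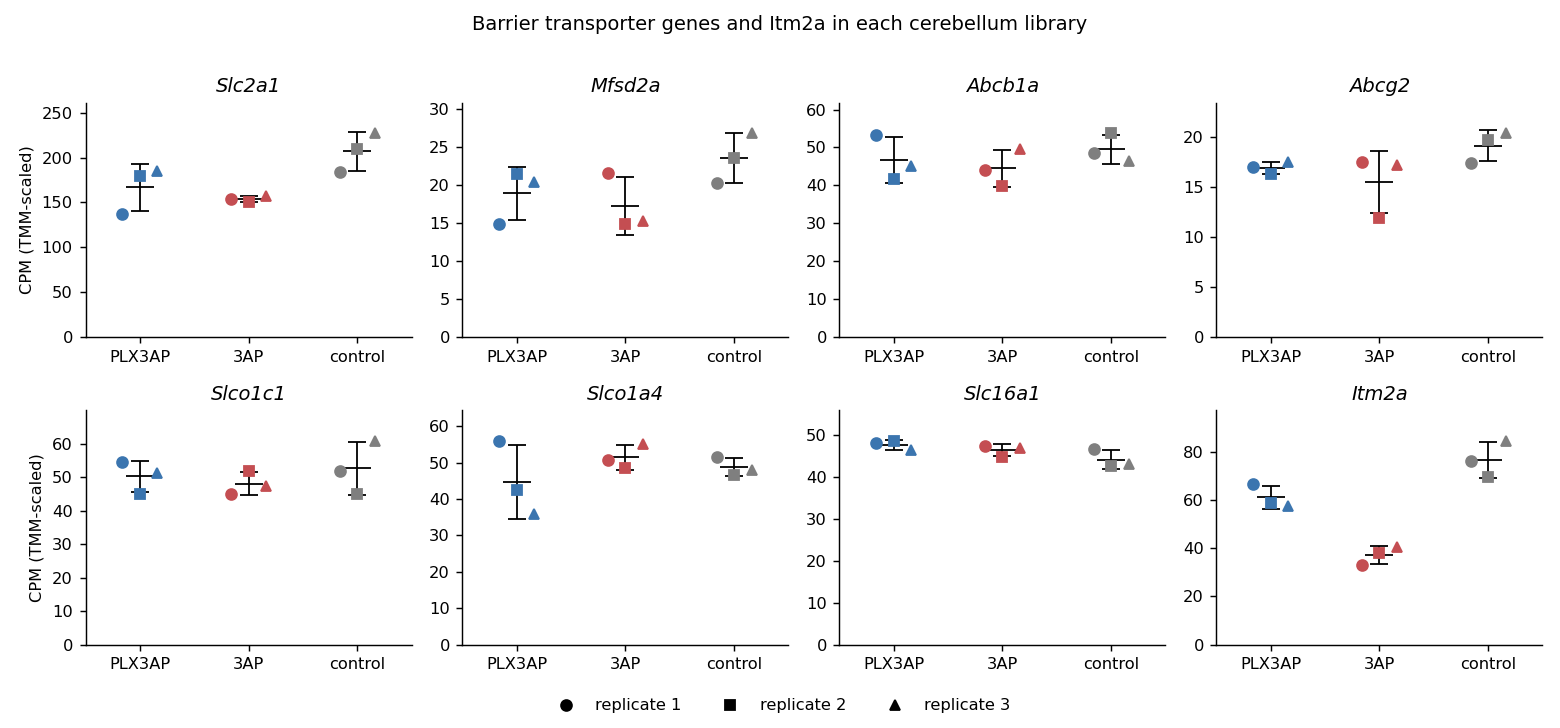
CPM of the 8 genes in each library, with 1 point per library, the mean as a bar and the SD as whiskers (n = 3 per group, axes from 0). Itm2a at 33.1 to 40.4 CPM in 3AP libraries lay below both other groups, Slc2a1 at 151 to 157 CPM in 3AP lay below control libraries, and the other 6 genes overlapped between groups.

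The comparison of 3AP with control cerebellum asks what changed after 3-AP. Of the 8 genes, 2 fell, Itm2a and Slc2a1, none rose and 6 did not pass the test, where 4.93% of all tested genes changed and 1.18% fell. The median log2 fold change of the 8 genes was -0.23, and -0.16 for the 7 transporters without Itm2a, beside 0.0012 for all tested genes. Itm2a had 33.1, 37.9 and 40.4 CPM in 3AP libraries, against 76.0, 69.5 and 84.5 CPM in control libraries. Every 3AP library lay below every control library, where 24.7% of all tested genes showed no overlap, counting both directions. The gap between the groups was several times the spread inside the 3AP group. The fold change was 0.485 (log2 fold change -1.05, SE 0.10, 95% interval -1.26 to -0.83, edgeR quasi-likelihood test with Benjamini-Hochberg adjusted p 6.6e-05). By p-value it was the 4th of the genes with a lower value and the 41st of all genes tested. It passed in all 21 alternatives, with adjusted p of at most 0.0015.

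Slc2a1, the glucose carrier, had 154, 151 and 157 CPM in 3AP libraries, against 184, 210 and 227 CPM in control libraries. The groups did not overlap, and the 3AP libraries lay close together (SD 3.35 CPM) while the control libraries were spread (SD 21.5 CPM). The log2 fold change was -0.43 (SE 0.11, 95% interval -0.67 to -0.19, edgeR adjusted p 0.045), a level 25.6% lower in 3AP. Groups that do not overlap were also seen in 24.7% of all tested genes. The call stood just inside the threshold and was lost in 11 of the 21 alternatives, always with the same direction. It was lost without control replicate 2 (edgeR adjusted p 0.13), control replicate 3 (0.14), 3AP replicate 1 (0.15), 3AP replicate 2 (0.14), 3AP replicate 3 (0.093) or PLX3AP replicate 2 (0.057), with Ttr as a covariate (0.080) and with library totals alone as the scaling (0.072). It was also lost with limma-trend on TPM (adjusted p 0.21 to 0.38).

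Mfsd2a, the lipid carrier, had 21.6, 14.9 and 15.2 CPM in 3AP libraries, against 20.3, 23.6 and 26.8 CPM in control libraries. One 3AP library lay above the lowest control library, and the other two lay below all of them. Its log2 fold change of -0.45 was as large as that of Slc2a1 with a wider error (SE 0.18, 95% interval -0.83 to -0.06), and it did not pass (edgeR adjusted p 0.21). Of the efflux pumps, Abcg2 had 17.5, 11.9 and 17.2 CPM in 3AP libraries, against 17.4, 19.7 and 20.4 CPM in control libraries. The groups overlap, and the lowest value was in 3AP replicate 2 (log2 fold change -0.30, SE 0.14, edgeR adjusted p 0.30, and -0.14 without that library). Abcb1a had 44.1, 39.7 and 49.6 CPM in 3AP libraries, against 48.6, 53.7 and 46.3 CPM in control libraries, which overlap (log2 fold change -0.16, SE 0.11, edgeR adjusted p 0.53).

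The carriers of hormones and of lactate did not pass the test. Slco1c1 stood at 48.1 ± 3.37 CPM in 3AP and 52.6 ± 7.87 CPM in control libraries, with a 95% interval of the log2 fold change from -0.37 to 0.11. Slco1a4 stood at 51.5 ± 3.44 CPM in 3AP and 48.8 ± 2.54 CPM in control libraries, with an interval from -0.21 to 0.37. Slc16a1, the monocarboxylate carrier, had 47.4, 44.8 and 46.9 CPM in 3AP libraries, against 46.6, 42.5 and 43.0 CPM in control libraries. Its interval, -0.08 to 0.23, was the narrowest of the 8 genes. Slco1c1 and Slco1a4 lie 235 kb apart on chromosome 6, on opposite strands.

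**Figure D2:**
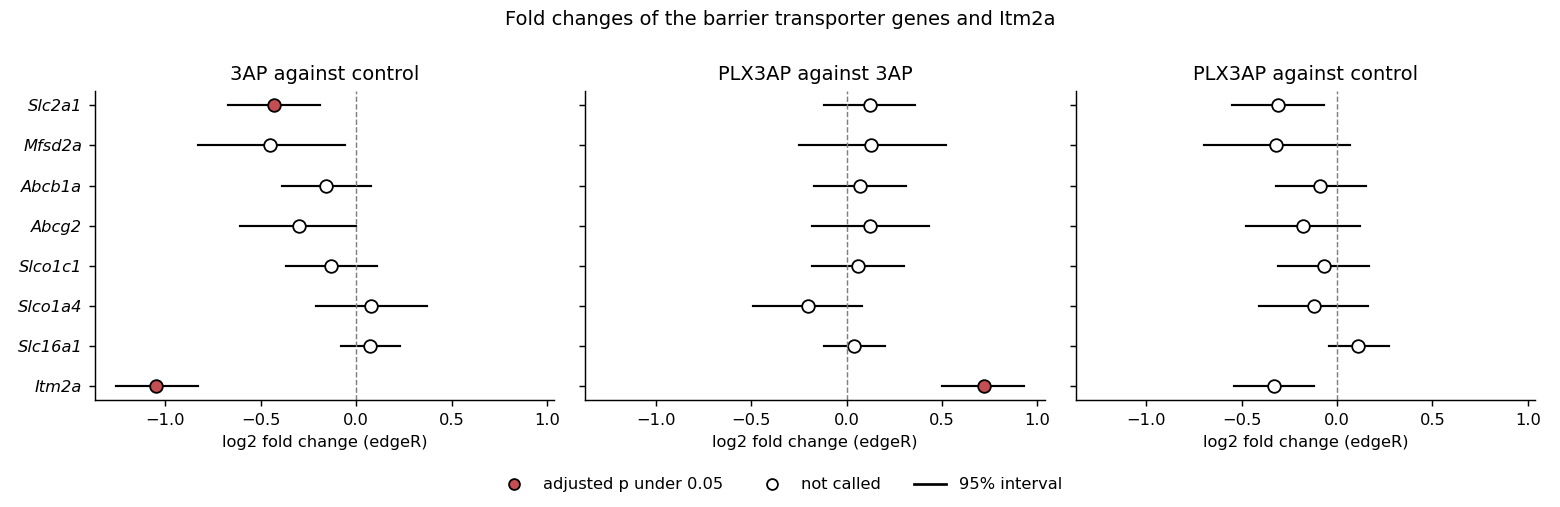
Log2 fold changes of the 8 genes in 3 comparisons (edgeR, all 9 libraries in the fit), with 95% intervals as lines and called genes filled. Itm2a is called in the first 2 comparisons, at -1.05 in 3AP against control and at 0.72 in PLX3AP against 3AP, and Slc2a1 in the first alone at -0.43.

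Setting PLX3AP beside 3AP asks what earlier PLX3397 changed in mice that received 3-AP. Of the 8 genes, Itm2a rose and 7 did not pass, where 3.73% of all tested genes changed and 0.577% rose. The median of the 8 was 0.093, beside -0.0083 for all tested genes. Itm2a had 66.7, 58.8 and 57.7 CPM in PLX3AP libraries, against 33.1, 37.9 and 40.4 CPM in 3AP libraries. Every PLX3AP library lay above every 3AP library, as in 7.66% of all tested genes. Itm2a was 1.64-fold higher (log2 fold change 0.72, SE 0.10, 95% interval 0.50 to 0.93, edgeR adjusted p 0.00096) and passed in all 21 alternatives, with adjusted p of at most 0.0094. This comparison and the one above share the 3AP libraries, so their opposite signs are not independent.

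The 7 transporters had log2 fold changes from -0.20 to 0.13 between PLX3AP and 3AP. Slc2a1 had 137, 179 and 185 CPM in PLX3AP libraries, against 154, 151 and 157 CPM in 3AP libraries, so that 1 PLX3AP library lay below all 3AP libraries and the other two above (log2 fold change 0.12, SE 0.11, 95% interval -0.12 to 0.36, edgeR adjusted p 0.76). Mfsd2a had 14.9, 21.4 and 20.4 CPM in PLX3AP and 21.6, 14.9 and 15.2 CPM in 3AP libraries, which overlap, with the highest value in a 3AP library (log2 fold change 0.13, edgeR adjusted p 0.84). Slco1a4 was the one gene with a lower value in PLX3AP, at 56.0, 42.4 and 36.0 CPM in PLX3AP and 50.7, 48.6 and 55.3 CPM in 3AP libraries (log2 fold change -0.20, SE 0.13, edgeR adjusted p 0.63). Without PLX3AP replicate 1, the highest of these values, Slco1a4 was called lower (log2 fold change -0.40, edgeR adjusted p 0.038). Abcb1a, Abcg2, Slco1c1 and Slc16a1 had intervals that reached no further than -0.18 below and 0.43 above zero.

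Between PLX3AP and control cerebellum edgeR called none of the 8 genes, where 0.120% of all tested genes were called, and DESeq2 called none either. Itm2a and Slc2a1 had an unadjusted p under 0.05 (0.0055 and 0.015), as did 9.35% of all tested genes. Itm2a stood at 61.1 ± 4.94 CPM in PLX3AP and 76.7 ± 7.54 CPM in control libraries, and the PLX3AP libraries (57.7 to 66.7 CPM) lay below all control libraries (69.5 to 84.5 CPM), as 6.42% of all tested genes did. Its log2 fold change was -0.33 (SE 0.10, 95% interval -0.54 to -0.12, edgeR adjusted p 0.31). Slc2a1 stood at 167 ± 26.3 CPM in PLX3AP and 207 ± 21.5 CPM in control libraries (log2 fold change -0.31, SE 0.11, edgeR adjusted p 0.41). For the other 6 genes the intervals included zero, with log2 fold changes between -0.32 for Mfsd2a and 0.11 for Slc16a1.

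Other transporters of the barrier moved both ways after 3-AP. In a list of 30 such genes, 29 could be tested, and 3 rose and 3 fell in 3AP against control, with a median of -0.019. Of all tested genes 4.93% changed. Slc22a8 (OAT3), which carries organic anions out of the brain, had 7.80, 10.5 and 10.5 CPM in 3AP libraries, against 15.8, 17.9 and 18.0 CPM in control libraries. Like Itm2a it lay below control in every 3AP library (log2 fold change -0.84, SE 0.13, edgeR adjusted p 0.0023). Slc38a5, a glutamine transporter, went the other way, with 6.43, 8.72 and 7.13 CPM in 3AP libraries, against 3.59, 3.75 and 2.83 CPM in control libraries (log2 fold change 1.13, SE 0.19, edgeR adjusted p 0.0034). Slco2b1, an organic anion carrier also found in microglia, rose to 21 ± 1.99 CPM in 3AP, against 14.1 ± 0.485 CPM in control libraries. Slc27a1, a fatty acid carrier, rose by a log2 fold change of 0.38, a call lost without control replicate 1 or 3AP replicate 2 (edgeR adjusted p 0.052 each). Slc7a5, a carrier of large neutral amino acids, and Tfrc, the transferrin receptor, were called lower by -0.37 and -0.36. Both calls were lost without any 1 of the control replicates 1, 2 and 3 and the 3AP replicates 1, 2 and 3, with edgeR adjusted p up to 0.14.

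In PLX3AP against 3AP 2 genes of the same list rose and 2 fell, where 3.73% of all tested genes changed. Slc22a8 had 16.5, 15.0 and 17.4 CPM in PLX3AP libraries, above all 3AP libraries (log2 fold change 0.76, SE 0.13, edgeR adjusted p 0.0049). Slc7a5 was higher as well, at 115 ± 15.1 CPM in PLX3AP and 79.9 ± 3.99 CPM in 3AP libraries (log2 fold change 0.53, edgeR adjusted p 0.0045). Slc38a5 fell to 2.75, 3.07 and 2.72 CPM in PLX3AP libraries (log2 fold change -1.38, SE 0.19, edgeR adjusted p 0.00092), and Slco2b1 fell to 10.5 ± 0.452 CPM (log2 fold change -1, edgeR adjusted p 0.00015). In PLX3AP against control none of the 29 genes was called by edgeR or DESeq2 (median 0.051). An unadjusted p under 0.05 was seen for 4 of them, and for 9.35% of all tested genes.

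Several genes that mark endothelial cells were higher where Itm2a was lower. In 3AP against control 7 of 18 endothelial identity genes rose and none fell, where 4.93% of all tested genes changed. The median of the list was 0.40, and 11 genes were not called. Of these, Flt1 (60.3 ± 0.339 CPM in 3AP and 66.7 ± 4.81 CPM in control libraries), Ptprb (43.2 ± 0.546 and 49.4 ± 7.17 CPM) and Ocln (27 ± 0.578 and 28 ± 3.42 CPM) had lower means in 3AP. The other uncalled genes had higher means in 3AP. Cldn5, the main claudin of the barrier junction, rose to 63.8 ± 7.68 CPM in 3AP, against 25.0 ± 0.642 CPM in control libraries (edgeR adjusted p 9.7e-06). Pecam1, an adhesion molecule of endothelial junctions, rose to 55.3 ± 5.34 CPM in 3AP, against 23.0 ± 1.09 CPM in control libraries. Egfl7, a protein secreted by endothelium, rose 2.08-fold, and Eng, a co-receptor for TGF-beta, 1.55-fold. The count was 4 without 3AP replicate 1, 5 without 3AP replicate 2 and 6 to 9 without any other library, and Ptprb was called lower without control replicate 3. In PLX3AP against 3AP 6 of the 18 fell, where 3.73% of all tested genes changed. The median was -0.44, and the count was 3 without 3AP replicate 2. Of 15 mural cell genes edgeR called none in either comparison, with medians of 0.14 and -0.15, while 3 and 4 had an unadjusted p under 0.05 and DESeq2 called 1 and 0. For scale, the unadjusted edgeR p of Abcg2 in 3AP against control, 0.052, ranked 2862nd of all 16634 tested genes. Such p-values were thus common, and the count of 3 says little about mural genes.

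**Figure D3:**
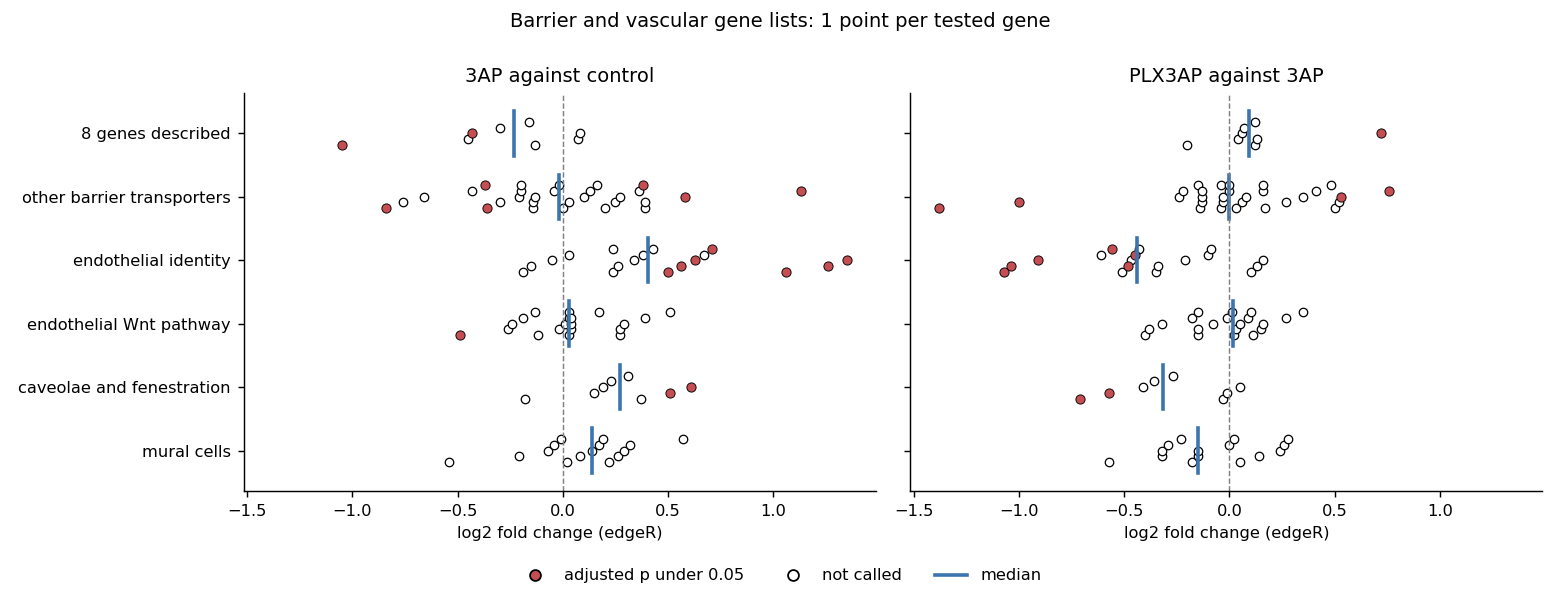
Log2 fold changes of the 8 genes and of 5 lists of barrier and vascular genes, with 1 point per tested gene, called genes filled and the median as a line. In 3AP against control the endothelial identity list has a median of 0.40 and the 8 genes a median of -0.23, and in PLX3AP against 3AP the medians are -0.44 and 0.093.

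Each gene was therefore also set against the mean log2 CPM of the 18 endothelial identity genes in the same library. On this scale all 8 genes were lower in every 3AP library than in every control library, by 0.38 (Slco1a4 and Slc16a1) to 1.5 (Itm2a). An exact two-sided permutation test gave p = 0.10 for each, the smallest that 3 against 3 libraries can give, and 0.13 adjusted over the 24 tests. Of all tested genes 65.7% were also lower in every 3AP library on this scale, so the count of 8 says little about these genes in particular. Between PLX3AP and 3AP 6 of the 8 genes were higher in every library, Itm2a by 1.12 and the 5 others by 0.44 to 0.54, where 59.3% of all tested genes were. Between PLX3AP and control 4 of the 8 (Slc2a1, Mfsd2a, Abcg2 and Itm2a) were lower in every library, where 11.5% of all tested genes were.

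The pathway that maintains the barrier programme showed 1 edgeR call among 20 genes in 3AP against control, where 4.93% of all tested genes were called. DESeq2 called 3 of the 20, and 6 had an unadjusted edgeR p under 0.05. For scale, the unadjusted edgeR p of Abcg2 in this comparison, 0.052, ranked 2862nd of all 16634 tested genes. Fzd4, a receptor of the Wnt and norrin signals in vessels, had 20.5, 22.5 and 21.1 CPM in 3AP libraries, against 25.0, 30.0 and 35.2 CPM in control libraries (log2 fold change -0.49, SE 0.12, edgeR adjusted p 0.037). Leaving out control replicate 2, control replicate 3 or any 3AP replicate ended that call (edgeR adjusted p 0.084 to 0.16). The median of the list was 0.033 in 3AP against control and 0.017 in PLX3AP against 3AP. RNA of the whole cerebellum was counted, so these values do not show the pathway in vessels alone. A further list held 8 genes of fenestrae and of caveolae, the vesicles whose transport Mfsd2a restrains. Cavin1, a coat protein of caveolae, and Ehd2, found at their neck, were called higher in 3AP against control (median of the list 0.27). In PLX3AP against 3AP both were called lower (median -0.31), where 3.73% of all tested genes changed. The log2 fold change was -0.57 for Cavin1 and -0.71 for Ehd2. The Cavin1 call there was lost without 3AP replicates 1 or 2 or PLX3AP replicates 1 or 2, and that of Ehd2 without 3AP replicate 1 (edgeR adjusted p up to 0.13). In 3AP against control, leaving out control replicate 1, control replicate 2, 3AP replicate 1 or 3AP replicate 2 ended the Cavin1 call, and that of Ehd2 without any control replicate, without 3AP replicates 1 or 2 or without PLX3AP replicate 2 (edgeR adjusted p up to 0.20). Among 15 genes of glucose and lactate handling, which Slc2a1 and Slc16a1 serve, 1 was called in 3AP against control, near the 4.93% of all tested genes. This was Hk2, a hexokinase, lower in 3AP (12.5 ± 1.67 CPM in 3AP and 19.1 ± 1.65 CPM in control libraries). The edgeR adjusted p was 0.013, and 0.066 to 0.074 after control replicate 1, control replicate 2 or 3AP replicate 1 was left out.

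Some of the 8 genes are also made outside vessels, so other cell types were counted. In 3AP against control 1 of 12 astrocyte genes (Aqp4) and 2 of 12 genes of mature oligodendrocytes (Opalin and Ugt8a) were called lower, with medians of -0.02 and -0.13. Of all tested genes 4.93% changed and 1.18% fell. None of 14 choroid plexus genes was called by edgeR or DESeq2 (median -0.17, 1 with an unadjusted p under 0.05). These 14 genes summed to 138 to 4120 CPM within the control group, so the lack of calls cannot show that choroid plexus was even between groups. Leaving out control replicate 1, control replicate 2 or any 3AP replicate ended the Aqp4 call, and leaving out control replicate 1, 3AP replicate 1 or 3AP replicate 2 ended that of Ugt8a. Opalin, a myelin protein, was at 16.8 ± 1.5 CPM in PLX3AP, 8.62 ± 1.75 CPM in 3AP and 16.8 ± 1.07 CPM in control libraries.

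Abcb1a gave different pictures in the 2 kinds of file. In TPM its 3AP libraries stood at 62.8, 15.4 and 19.5 TPM, against 17.4, 20.1 and 16.4 TPM in control libraries. The first 3AP library was the highest of all 9 in TPM, yet it held 898 estimated counts, within the range of 815 to 1045 over all libraries. TPM per CPM was 1.42 there and 0.353 to 0.410 in the other 8 libraries. A spread of this ratio as wide as that of Abcb1a (4.03-fold from the lowest to the highest library) occurred in 15 of 10529 genes with at least 10 CPM on average, where the median was 1.17-fold. TPM divide by an estimated transcript length, and GENCODE M21 lists 4 transcripts of Abcb1a between 129 and 4997 bases long. With TPM the log2 fold change of Abcb1a in 3AP against control was 0.56 to 0.58 (limma-trend adjusted p 0.67 to 0.68), the opposite sign to the counts. Its estimated counts were not whole in 8 of 9 libraries, and its near copy Abcb1b stood at 0.440 to 2.26 TPM.

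**Figure D4:**
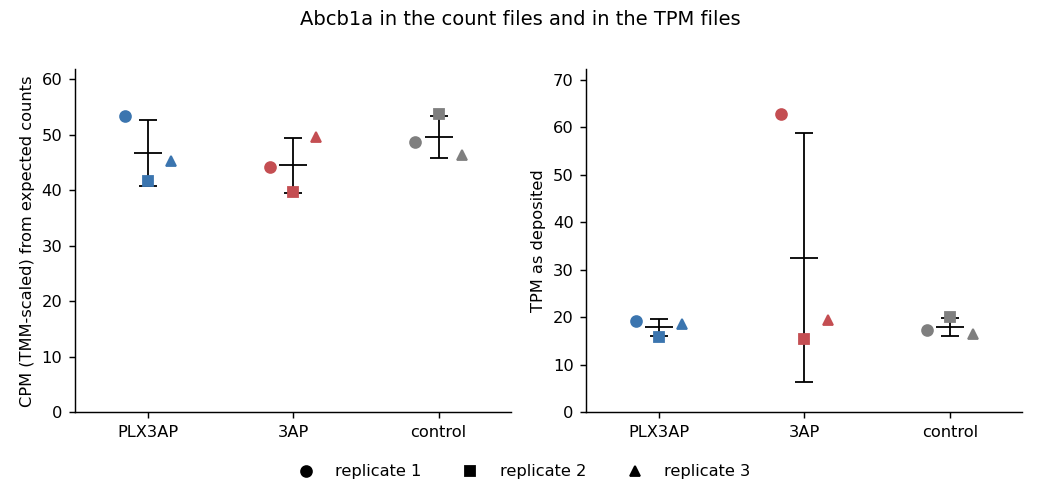
Abcb1a in CPM from the expected counts (left) and in TPM as deposited (right), with 1 point per library, the mean as a bar and the SD as whiskers (n = 3 per group, axes from 0). The first 3AP library stands at 44.1 CPM among the others on the left and at 62.8 TPM far above them on the right.

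The closest relatives of the 8 genes were counted from a list of 16, of which 13 could be tested. Slco2b1, described above, was the one called in 3AP against control and in PLX3AP against 3AP, where 4.93% and 3.73% of all tested genes were called. Itm2b and Itm2c, the relatives of Itm2a with a wider expression, stood at 1940 ± 104 and 386 ± 23.3 TPM in 3AP and did not pass in any comparison. Slco1a1 had no counts in any library, and Slco1a5 and Slco1a6 stood at no more than 0.860 and 1.58 TPM.

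The genes most alike to Itm2a over the 9 libraries, by the Pearson correlation of log2 CPM, were Cyp51, a gene of cholesterol synthesis (r = 0.977, Spearman 0.983), Cacna2d4 (r = 0.969) and 3110082J24Rik (r = 0.968). For Slc2a1 they were Wee1, Lims2 and Tsc22d3 (r = 0.970, 0.968 and 0.966), and for Mfsd2a Dnajb3, Pak1 and Gm4739 (r = 0.948, 0.946 and 0.944). These values describe 9 libraries that share their groups, each is the highest of all tested genes, and within groups those of Itm2a were lower (0.56 to 0.79). Between the 8 genes, Slc2a1 and Mfsd2a were the most alike (r = 0.86).

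In GRCm38 the genes lie on 5 chromosomes. Itm2a (ENSMUSG00000031239.5) spans chromosome X from 107397099 to 107403376 on the minus strand, with 6 exons in its single transcript. Slc2a1 spans chromosome 4 from 119108711 to 119137983 and Mfsd2a chromosome 4 from 122946850 to 122961188. Abcb1a spans chromosome 5 from 8660077 to 8748575, Abcg2 chromosome 6 from 58584523 to 58695676 and Slc16a1 chromosome 3 from 104638668 to 104658462. Slco1c1 spans chromosome 6 from 141524368 to 141570177 and Slco1a4 chromosome 6 from 141805440 to 141856199. In the 250 bases before each RefSeq start, on both strands, the TCF/LEF core CTTTGAT and the ETS core CCGGAA were in none of the 8 genes, where 3.21% and 12% of all 32851 promoters hold them. The hypoxia core ACGTG was in 3 (Slc2a1, Mfsd2a and Slc16a1), where 16.6% of promoters hold it, and the SOX core AACAAT in 1 (Slco1a4), where 9.42% do. In Mfsd2a the hypoxia core began at positions -107 and -9 from the start, as the capitals in its sequence above mark, and in Slc2a1 at -36, from where it runs past the end of the printed stretch. For Abcb1a the window lies before the RefSeq start and ends at 8567090 on chromosome 5. The GENCODE span given above begins downstream of it, at 8660077, so the bases before that start were not searched. A match is a run of letters and not a shown binding site, and its absence here says nothing of other windows.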

How the data were processed

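Per the labels, total RNA of mouse cerebellum was sequenced in 9 libraries. The submitters' processing notes name the mm10 build and the tools fastp, HISAT2, StringTie and RSEM. The sources used here give no version, annotation, strandedness or filter. The deposited files hold expected counts (estimated reads per gene, 28.7 to 30.8% of values above 0 not whole) and TPM, scaled by the authors to transcript length and library total. CPM and log2 fold changes were computed here. The 1884 unnamed rows held 0.526 to 0.660% of all counts and were dropped. Rounded expected counts were fitted in R 4.3.3 with edgeR 4.0.16 (filterByExpr, TMM, robust quasi-likelihood, all 9 libraries, 1 term per group), and p-values are two-sided and Benjamini-Hochberg adjusted over 16634 genes, with calls under 0.05. Intervals are at 95%.

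The fit was tested on simulated data with planted changes in each of the 3 comparisons. It recovered 43.3 to 46.3% of genes planted at 1.5-fold, 62.7 to 68.7% at 2-fold and 89.4 to 92.4% at 4-fold. The planted genes were drawn at random from all tested genes, with no other change between groups. These rates are therefore not those of the 8 genes. False calls were 13 of 150 in 3AP against control and 10 of 140 in PLX3AP against 3AP. A gene that did not pass can therefore still differ. Libraries of a group differed by more than sampling noise, with chi-square values per degree of freedom of 4.68 to 27.2. Alternatives were DESeq2 1.42.0, limma 3.58.1 (voom on counts, trend on log2(TPM + 1) and log2(TPM + 0.1)), other scalings and filters, 2 groups alone, the replicate number as a block, Ttr as a covariate and leaving out each library. The 8 genes and the lists were chosen with earlier results of these data known. Named were the 8 genes, list genes called in a comparison (the 4 with the smallest p where over 6 were called) and the 3 genes most correlated with a member. Endothelial genes with a lower mean in 3AP than in control libraries were named as well. Promoters are from RefSeq (GRCm38.p6, all 8 genes matched), gene spans from GENCODE M21. Estimated counts can divide reads between near copies, and those of Abcb1a were not whole in 8 of 9 libraries.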

Additional observations from a re-analysis of the deposited data

How the results depend on the processing

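Of 504 fold changes of the 8 genes recomputed under 21 alternatives, 480 kept their direction and side of the threshold, 11 lost the call (all Slc2a1 in 3AP against control), 1 gained one (Slco1a4 in PLX3AP against 3AP without PLX3AP replicate 1) and 12 changed sign, none of them called. These 12 were Abcb1a with TPM (0.56 and 0.58 in 3AP against control, -0.56 and -0.58 in PLX3AP against 3AP), and, in PLX3AP against 3AP, Abcb1a (-0.01) and Abcg2 (-0.04) without 3AP replicate 2 and Abcb1a (-0.04) and Slco1c1 (-0.01) without PLX3AP replicate 1. Against control they were Slco1c1 without control replicate 3 (0.05) and Slco1a4 without PLX3AP replicate 3 (0.01). Without 1 library, the values in PLX3AP against 3AP ran from -0.04 to 0.15 for Abcb1a, -0.04 to 0.21 for Abcg2 and -0.01 to 0.13 for Slco1c1, and in PLX3AP against control from -0.17 to 0.05 for Slco1c1 and -0.32 to 0.01 for Slco1a4. Relative to the endothelial genes, Abcb1a changed sign with log2(TPM + 0.1), to 0.07 in 3AP against control and -0.17 in PLX3AP against 3AP. Apart from the TPM ratio described for Abcb1a, the cause was not tested. In 3AP against control the number of the 8 genes called was 1 with library totals only, with Ttr as a covariate and with TPM at either pseudocount, filtered or not, and 1 to 2 without 1 library. In PLX3AP against 3AP it was 1 to 2 without 1 library, and in PLX3AP against control it was 0 in every alternative run. Over all genes, 820 were called in 3AP against control (419 with limma-trend on unfiltered TPM, 466 to 991 without 1 library) and 621 in PLX3AP against 3AP (361 and 401 to 715). In PLX3AP against control 20 were called, 110 with DESeq2, 71 without a filter, 12 with Ttr as a covariate, 9, 19 and 4 with limma-trend on filtered log2(TPM + 1), filtered log2(TPM + 0.1) and unfiltered log2(TPM + 1), and 7 to 153 without 1 library, the highest without PLX3AP replicate 1. Same-numbered libraries of different groups did not deviate together (9 correlations of -0.20 to 0.09, and 0 of 9 libraries correlated best with its own number), so the numbers were not taken as pairs. With a replicate block edgeR called 580, 504 and 10 genes in the 3 comparisons, and 2, 1 and 0 of the 8. Of the list genes called, 17 of 31 in 3AP against control and 9 of 26 in PLX3AP against 3AP lost the call without at least 1 library. With 3 libraries per group the 95% intervals stay wide (-0.83 to -0.06 for Mfsd2a in 3AP against control).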

Other observations

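Among 13 genes of the hypoxia response, a programme that can also raise Slc2a1, edgeR called 1 (Ndrg1) in 3AP against control. This is near the 4.93% of all tested genes that were called. DESeq2 called 2 of the 13, and 7 had an unadjusted edgeR p under 0.05. For scale, the unadjusted edgeR p of Abcg2 in this comparison, 0.052, ranked 2862nd of all 16634 tested genes. Ndrg1, a hypoxia-induced gene that myelinating cells also express, was at 92 ± 7.15 CPM in 3AP and 122 ± 7.91 CPM in control libraries (log2 fold change -0.41, edgeR adjusted p 0.032), a call that ended when control replicate 1, control replicate 3, 3AP replicate 1 or 3AP replicate 2 was left out (up to 0.14). It was higher in PLX3AP (134 ± 17.6 CPM) than in 3AP libraries (log2 fold change 0.55, edgeR adjusted p 0.0064). The medians of the list were -0.13 and 0.085. Ndrg1 was the 1 gene of the list called in PLX3AP against 3AP, where 3.73% of all tested genes were called.

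In the PLX3AP group replicate 1 held the lowest Slc2a1 (137 CPM) and Mfsd2a (14.9 CPM) and the highest Slco1a4 (56.0 CPM), Abcb1a (53.3 CPM) and Itm2a (66.7 CPM). Ttr was at 1920 CPM in that library, 11.5 CPM in PLX3AP replicate 2 and 1750 CPM in PLX3AP replicate 3.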
